A study of Mus musculus with 81 samples.

Results

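The histone variant mH2A1 lay over very long stretches of chromatin in area CA1 of the hippocampus of untrained mice, and the regions described here are its longest domains. They were found from the 5 mH2A1 domain lists of untrained mice of the 6 h experiment: each 200 bp bin that lay under a domain in at least 3 of the 5 lists was kept, adjacent bins were merged, and merged domains of 50 kb or more were taken. This gave 1574 long domains of 68877 merged domains, or 2.29% of them. By length they made up 138 of 602 Mb, or 23.0%, and 5.41% of the mapped autosomes and X chromosome. The mH2A1 cover of these 5 libraries chose the regions, so it is given below as a description and supports nothing.

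Chromatin immunoprecipitation with sequencing (ChIP-seq) was done on male C57BL/6J mice of about 9 to 12 weeks, which were either trained in contextual fear conditioning with 3 foot shocks or left untrained in the home cage. The mH2A1 lists came from mice collected 30 min (2 trained, 3 untrained), 1 h (2 trained, 2 untrained) and 6 h (5 trained, 5 untrained) after training, and the mH2A2 lists from mice collected at 30 min (2 trained, 3 untrained) and 1 h (3 trained, 3 untrained). RNA sequencing covered 3 experiments on CA1. In the depletion experiment, home-cage mice received an adeno-associated virus (AAV-DJ) with a short hairpin RNA against H2afy, the gene of mH2A1 (shH2afy, n = 3), against H2afy2, the gene of mH2A2 (shH2afy2, n = 3), or with a scrambled hairpin (shScr, n = 3). In the training experiment, shH2afy and shScr mice were each either trained and collected after 1 h or left untrained (n = 3 each), and intact mice without virus were trained (1 h, n = 2) or untrained (n = 3). The hairpins were expressed from a U6 promoter and the virus carried a GFP reporter, so every virus group, shScr included, had surgery and infection, and the injected tissue held infected and uninfected cells of all types. In such bulk RNA, fewer cells of a type and less RNA per cell cannot be told apart.

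Macro-histones are variants of histone H2A that carry a large globular macro domain behind the histone fold. mH2A1 and mH2A2 are made from separate genes, form broad domains over silent chromatin, including developmental genes that Polycomb keeps off, and are best known for their build-up on the inactive X chromosome of female cells. In neurons and other differentiated cells they are generally regarded as restraining transcription, although they are also found on some active genes.

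Promoters of 6 genes within the long domains are shown, because 4 of them (C1qb, C1qc, Laptm5 and Irf8, all microglial genes) had among the clearest RNA changes after shH2afy and the other 2 (Hoxb1 and Hoxb4) belong to one of the 2 long domains with the most protein-coding genes. Each is the 250 bases before the gene's annotated start from RefSeq on GRCm38.p6, the same assembly as the mm10 build of the files. In the first 3, capitals mark GAGGAA or its reverse complement TTCCTC, the core letters bound by PU.1, a transcription factor of microglia and other myeloid cells. Neither stands in the Irf8 window or in that of another annotated Irf8 start. The letters are thus not shared by the promoters of all 4 microglial genes.
C1qb (chr4:136886201-136886450, minus strand): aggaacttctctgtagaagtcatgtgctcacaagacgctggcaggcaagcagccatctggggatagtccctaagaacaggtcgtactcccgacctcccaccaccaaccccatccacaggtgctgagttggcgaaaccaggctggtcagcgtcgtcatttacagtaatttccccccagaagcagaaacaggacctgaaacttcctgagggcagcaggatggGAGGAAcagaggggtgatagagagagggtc
C1qc (chr4:136892915-136893164, minus strand): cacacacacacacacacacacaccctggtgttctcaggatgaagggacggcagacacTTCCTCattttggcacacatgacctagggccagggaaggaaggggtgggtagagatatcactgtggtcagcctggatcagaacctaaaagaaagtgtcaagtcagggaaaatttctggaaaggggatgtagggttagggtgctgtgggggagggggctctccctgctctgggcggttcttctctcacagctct
Laptm5 (chr4:130913066-130913315, plus strand): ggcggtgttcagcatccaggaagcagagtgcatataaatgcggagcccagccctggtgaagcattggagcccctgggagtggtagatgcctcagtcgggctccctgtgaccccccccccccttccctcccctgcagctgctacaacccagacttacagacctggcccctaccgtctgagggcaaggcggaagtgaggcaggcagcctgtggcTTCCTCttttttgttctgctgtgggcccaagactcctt
In the next 3, capitals mark each CG dinucleotide, which numbered 29 for Irf8, 14 for Hoxb4 and 7 for Hoxb1.
Irf8 (chr8:120736108-120736357, plus strand): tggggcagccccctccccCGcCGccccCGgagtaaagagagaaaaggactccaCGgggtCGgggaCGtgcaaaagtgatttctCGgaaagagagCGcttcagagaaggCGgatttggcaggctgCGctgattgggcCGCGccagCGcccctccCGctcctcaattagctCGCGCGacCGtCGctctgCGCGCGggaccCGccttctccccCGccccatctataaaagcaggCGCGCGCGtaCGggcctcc
Hoxb4 (chr11:96318017-96318266, plus strand): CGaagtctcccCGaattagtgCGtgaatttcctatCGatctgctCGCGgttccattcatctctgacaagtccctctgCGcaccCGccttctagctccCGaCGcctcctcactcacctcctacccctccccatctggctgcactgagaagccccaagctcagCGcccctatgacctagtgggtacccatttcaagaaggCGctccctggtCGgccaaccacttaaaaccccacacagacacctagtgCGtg
Hoxb1 (chr11:96365508-96365757, plus strand): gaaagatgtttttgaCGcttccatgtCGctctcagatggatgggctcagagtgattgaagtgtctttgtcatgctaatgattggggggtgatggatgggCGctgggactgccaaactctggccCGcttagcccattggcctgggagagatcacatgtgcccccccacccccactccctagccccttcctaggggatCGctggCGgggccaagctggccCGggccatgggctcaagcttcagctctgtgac
All 6 windows lay within a long domain. Among the 14 mH2A1 libraries that played no part in choosing the domains, the C1qb, C1qc and Laptm5 windows were wholly under a called mH2A1 domain in 14 of 14, the Hoxb1 and Hoxb4 windows in 13 of 14, and the CG-rich Irf8 window in 6 of 14, while the window of a second annotated Irf8 start (chr8:120738389-120738638, not printed) was covered in 13 of 14. The windows were under a called mH2A2 domain in 10 of 11 libraries for C1qc and Hoxb1, 9 of 11 for C1qb, 8 of 11 for Laptm5, 6 of 11 for Irf8 (8 of 11 at its second start) and 4 of 11 for Hoxb4. Of the 1105 protein-coding genes inside long domains, 800 matched a RefSeq promoter, with 961 windows. The letters GAGGAA, on either strand, stood in 25.8% of these windows, in 28.1% of the 171 windows of genes that were higher after shH2afy, and in 23.3% of all 32851 windows. The homeobox and related transcription factor genes inside long domains had a median of 15 CG per window over 41 windows, against 6 over all windows inside and 6 over all windows in the table.

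Totals of the RNA libraries were 9.95 to 18.8 M counts (M, mega) in the depletion experiment, 48.8 to 58.6 M counts in intact mice and 81.4 to 92.2 M counts in the training experiment, and the depth of the ChIP libraries is not given by their domain lists. By the labels each library of a group came from a separate mouse. Of the ChIP libraries, trained 30 min mH2A2 replicate 2 covered the least of the genome (8.81%) and of the long domains (22.8%), and untrained 1 h mH2A1 replicate 2 covered less of the long domains than its partner. Cover differences and counts of domains between groups that hold them are given with and without them. Other values of these groups, such as log2 ratios and differences over the whole genome, are given only with them.

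Long domains reached a length of 529.2 kb, with a median of 71.2 kb, against a median of 4.20 kb over all merged domains. Of the 1574, 852 were under 75 kb, 350 were 75 to under 100 kb, 318 were 100 to under 200 kb, and 54 were 200 kb or more. Lengths ran smoothly through the limit of 50 kb: 246 long domains were less than 5 kb above it and 331 domains less than 5 kb below it, the 5 shortest of the long domains were at the limit itself and the 5 longest of the others were 49.8 kb long. The longest, of 529.2 kb on chr4:131307001-131836200, held Ptpru, a receptor-type tyrosine phosphatase gene. The next were 473.0 kb on chr4:154162401-154635400 with Prdm16, Megf6 and Arhgef16, and 405.4 kb on chr8:120678201-121083600 with Irf8. Of the 10 longest, 3 had no protein-coding gene inside, on chr11:114067201-114456400, chr2:166155801-166531200 and chr6:99873401-100221600.

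The long domains were spread unevenly over chromosomes. They took up 9.32% of chromosome 11, 9.29% of chromosome 5 and 9.01% of chromosome 4, but 1.44% of chromosome 3, the lowest autosome, where 30 lay. Chromosome X held 0 long domains, and all of its 126 merged domains together covered 0.242% of it, against 23.5% for all merged domains over the mapped genome. The mice were male and so had a single, active X chromosome.

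In base composition the long domains had 47.8% GC, shorter mH2A1 domains of 10 to under 50 kb (n = 13348) 45.9% and the mapped genome 41.8%. Repeats made up 23.4% of long domains, 25.7% of shorter domains and 34.3% of the genome, and CG dinucleotides numbered 11.7, 10.5 and 8.34 per kb in the same order. Median GC was 47.0% in long domains under 75 kb, 47.4% in those of 75 to under 100 kb, 47.9% in those of 100 to under 200 kb and 49.2% in those of 200 kb or more, and over the 1574 long domains the Spearman correlation of length with GC was 0.169. These are differences between sets of regions chosen on mH2A1 cover and were not tested.

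mH2A1 cover of the long domains was high in mice that had no part in choosing them, and depended on the experiment. Cover is the percentage of the joint length of the long domains that lay under a called domain. At 30 min it was 57.8 and 67.8% in trained mice, against 68.6, 73.1 and 77.8% in untrained mice. At 1 h it was 94.0 and 96.0% in trained mice, against 96.2 and 86.5% in untrained mice. In the 6 h experiment it was 96.8% ± 0.423 (SD, n = 5, range 96.2 to 97.3%) in trained mice, against 97.5% ± 0.487 (96.9, 98.2, 97.7, 97.3 and 97.6%) in the untrained mice that chose the regions. Every 30 min library thus lay below every 1 h and 6 h library. When long domains were rebuilt from 4 of the 5 untrained libraries, the library left out covered 98.1% ± 0.432 of them (n = 5). The 30 min mH2A1 libraries were made with another antibody (Abcam) than those of 1 h and 6 h (Thermo Fisher), so antibody and time cannot be told apart.

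**Figure D1:**
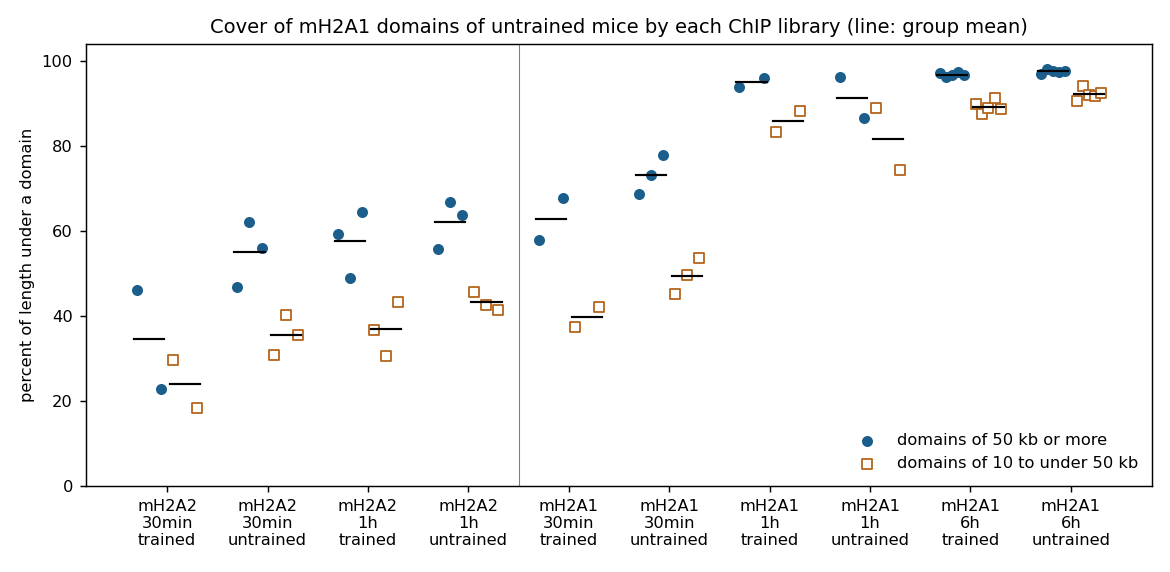
Percentage of the joint length of the long domains (left of each pair) and of shorter mH2A1 domains of 10 to under 50 kb (right of each pair) under a called domain, one point per library, with mH2A2 left of mH2A1, trained groups left of untrained groups and black lines at the group means. mH2A2 cover of the long domains lies between 22.8 and 66.7%, and mH2A1 cover is 86.5% or more in all 1 h and 6 h libraries.

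The mH2A2 domains covered the long mH2A1 domains in part. The domains were chosen on mH2A1 cover, and the 1 h mH2A1 libraries used the antibody of the libraries that chose them. Lower mH2A2 than mH2A1 cover was thus favoured by the choice. The tests and counts of this paragraph therefore give no independent support for a difference between the variants. At 1 h the cover was 59.4, 49.0 and 64.5% in trained mice, against 55.8, 66.7 and 63.8% in untrained mice. At 30 min it was 46.2 and 22.8% in trained mice, against 46.8, 62.2 and 55.9% in untrained mice. In untrained mice mH2A2 minus mH2A1 cover was −18.2 percentage points at 30 min (55.0% ± 7.77 against 73.2% ± 4.60, n = 3 each) and −29.2 points at 1 h (62.1% ± 5.65 against 91.3% ± 6.85, n = 3 and 2), with no overlap between the libraries of the 2 variants at either time (exact permutation test, two-sided, p = 0.1 for each, the smallest these numbers allow, adjusted p = 0.3 over 6 comparisons). Over the whole genome the same differences were −1.23 points at 30 min (14.3 against 15.5%) and −6.93 points at 1 h (16.7 against 23.7%). As a log2 ratio to cover of the genome, mH2A2 minus mH2A1 was −0.30 at 30 min (exact permutation p = 0.1) and −0.06 at 1 h (exact permutation p = 1). In shorter mH2A1 domains the differences were −14.0 points at 30 min and −38.5 points at 1 h. Counted one by one, 685 long domains (43.5%) had lower mH2A2 than mH2A1 cover in every untrained library at 30 min, where 19.0% of all 14922 mH2A1 domains of 10 kb or more did, and 1131 (71.9%) at 1 h, where 63.8% of all did. Without untrained 1 h mH2A1 replicate 2 the 1 h difference was −34.1 points and the share 89.7%, where it was 81.6% of all. In the other direction, mH2A2 cover was higher in every library in 7 long domains at 30 min, where 1.39% of all were, and in 2 at 1 h, where 1.29% were. In the 30 min experiment both variants were measured in the same mouse against the same input, and mH2A2 covered less than mH2A1 in 5 of 5 mice: mH2A2 minus mH2A1 cover was −11.7 and −44.9 points in trained mice and −21.9, −10.9 and −21.9 points in untrained mice. The length shared by both variants made up 48.1 and 26.9% of their joint length within long domains in trained mice, against 51.0, 64.5 and 59.4% in untrained mice. The labels of the untrained 1 h mH2A1 samples give macroH2A2 as the antibody while their titles give macroH2A1, so the 1 h comparison rests on the titles.

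Trained and untrained mice were compared in each experiment that the choice of regions had not used. Trained minus untrained cover at 30 min was −10.4 points for mH2A1 (62.8% ± 7.02 against 73.2% ± 4.60, n = 2 and 3) and −20.4 points for mH2A2 (34.5% ± 16.5 against 55.0% ± 7.77), and in both cases each trained library lay below each untrained library (exact permutation test, two-sided, p = 0.2 where 0.1 is the smallest possible, adjusted p = 0.3). Neither passed the test, and both moved with single libraries: the mH2A1 difference was −5.44 points without trained replicate 1, and the mH2A2 difference was −32.1 points without trained replicate 1 and −8.78 points without trained replicate 2. Over the genome as a whole the differences were −2.66 points for mH2A1 (12.9 against 15.5%) and −3.58 points for mH2A2 (10.7 against 14.3%). Cover of the long domains relative to that of the genome was higher in trained mice for mH2A1 (log2 ratio 0.046, exact permutation p = 0.6) and lower for mH2A2 (−0.32, exact permutation p = 0.1). For mH2A2 the long domains had 3.65 times the cover of the genome in trained replicate 1 and 2.59 times in trained replicate 2. In untrained mice it was 3.66, 3.92 and 3.91 times. The mH2A2 difference in this ratio thus came largely from trained replicate 2. At 1 h trained minus untrained cover was 3.67 points for mH2A1 (95.0% ± 1.47 against 91.3% ± 6.85, n = 2 each, exact permutation p = 1, where 0.333 is the smallest possible) and −4.50 points for mH2A2 (57.6% ± 7.91 against 62.1% ± 5.65, n = 3 each, exact permutation p = 0.6). Without untrained replicate 2, which had 86.5% cover, the 1 h mH2A1 difference turned to −1.17 points.

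Counted one by one, 519 of 1574 long domains (33.0%) had lower mH2A1 cover in every trained than in every untrained library at 30 min, where 20.1% of all 14922 did, and 14 had higher cover in every trained library, where 4.07% of all did. For mH2A2 at 30 min, 575 (36.5%) were lower in trained mice, where 16.7% of all were, and 11 were higher, where 2.71% were. Without trained replicate 2 these were 625 (39.7%), where 21.6% of all were, and 119 (7.56%), where 13.7% were. At 1 h, 278 (17.7%) had higher mH2A1 cover in trained mice, close to the 16.6% of all, and 57 lower, where 10.5% of all were. Without untrained replicate 2 they were 287 (18.2%), where 20.7% of all were, and 665 (42.2%), where 39.3% were. For mH2A2 at 1 h, 113 (7.18%) were lower, where 6.15% were, and 4 higher, where 0.952% were. The direction at 30 min was that of the whole libraries given above.

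Long domains were better covered than shorter mH2A1 domains in every library of either variant. Length was set by unbroken mH2A1 calls in the libraries that chose the domains, so higher mH2A1 cover of the longer ones was favoured by the choice. Over the 14 mH2A1 libraries that did not choose them, cover was 85.9% ± 13.9 in long domains and 72.1% ± 21.2 in shorter ones, a difference of 13.7 ± 7.70 points that was positive in 14 of 14 (exact sign-flip permutation test, two-sided, p = 0.000122, the smallest possible). For mH2A2 it was 53.9% ± 12.6 and 35.9% ± 8.07 over 11 libraries, a difference of 18.0 ± 6.00 points that was positive in 11 of 11 (exact sign-flip permutation test, p = 0.000977, the smallest possible), and 19.4 ± 4.22 points over the 10 libraries other than trained 30 min replicate 2. Without untrained 1 h replicate 2 the mH2A1 difference was 13.9 ± 7.99 points over 13 libraries. By group the mH2A1 difference ran from 7.55 points in trained 6 h mice to 23.7 points in untrained 30 min mice, so the test joins experiments and antibodies that differ. Called enrichment went the same way as cover for mH2A1 and differed little for mH2A2. The length-weighted log2 of ChIP over input of the called domains was higher in long than in shorter domains by 0.16 for mH2A1 (12 of 14 libraries, exact permutation p = 0.00061) and by 0.02 for mH2A2 (7 of 11, exact permutation p = 0.245).

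The length of a domain as a single unbroken call depended on the library. An unbroken stretch of at least 50 kb was called in 51.8% ± 3.56 of long domains in trained 6 h mice (n = 5), but at 30 min in a mean of 2.10% in trained and 4.55% in untrained mice. The same rule applied to the 5 trained 6 h libraries gave 1485 domains of 128.87 Mb. Of their length, 83.7% lay within the long domains of untrained mice, and 77.9% of the length of the long domains of untrained mice lay within those of trained mice. Requiring 4 of 5 untrained libraries left 992 long domains, and requiring all 5 left 360.

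Single long domains, which were chosen on mH2A1 cover, differed more widely in mH2A2 than in mH2A1 cover. The mean mH2A2 cover over 11 libraries lay between 3.94 and 96.5%, with a median of 53.0%, and was under 50% in 705 long domains, while the mean mH2A1 cover over the 14 libraries lay between 59.9 and 98.5%, with a median of 85.3%. Both were higher at higher GC: the Spearman correlation over the 1574 was 0.688 with mH2A2 cover and 0.597 with mH2A1 cover, and the 2 covers correlated with each other at 0.699. The fifth of lowest GC (315, median 44.9% GC) had a median mH2A2 cover of 31.4% and a median mH2A1 cover of 78.4%, and the fifth of highest GC (315, median 50.5% GC) had medians of 71.5% for mH2A2 and 91.2% for mH2A1. These correlations describe regions that share the same libraries, and no p is given. Long domains with a protein-coding gene inside (660) had a median mH2A2 cover of 60.0%, and those that overlap none (687) had 45.3%, with median GC of 48.6 and 46.4%.

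**Figure D2:**
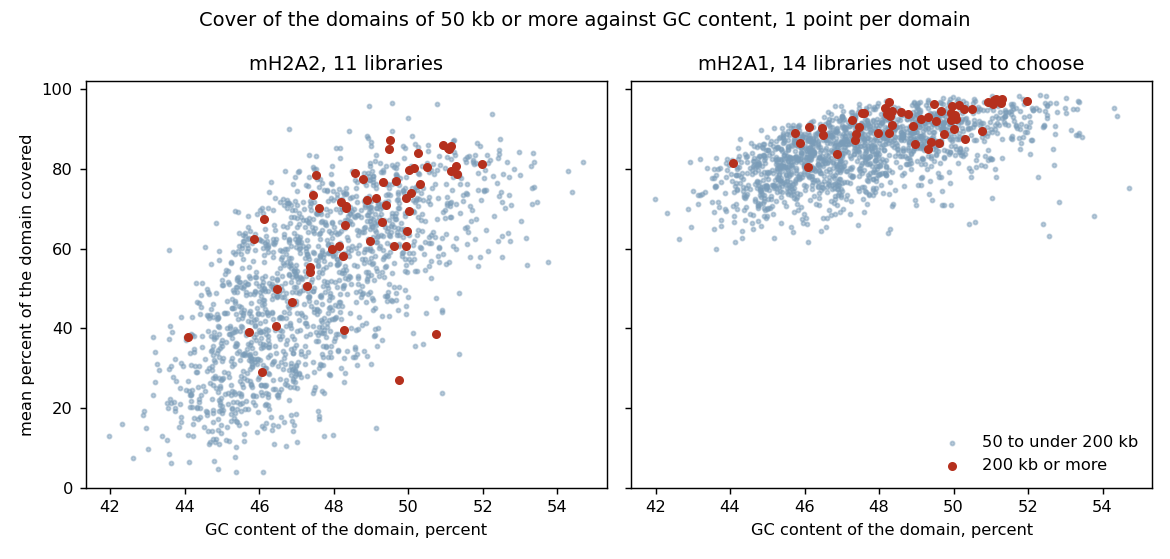
Mean cover of each of the 1574 long domains, for mH2A2 over 11 libraries and for mH2A1 over the 14 libraries that did not choose the domains, against the GC percentage of the domain, with domains of 200 kb or more as larger red points. Cover is higher at higher GC for both variants (Spearman 0.688 for mH2A2 and 0.597 for mH2A1), and the spread at a given GC is wider for mH2A2.

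A few named long domains show this range. In the 405.4 kb domain of Irf8, a transcription factor of myeloid cells, mH2A2 cover at 1 h was 91.0, 83.4 and 91.0% in trained mice, against 79.6, 95.9 and 93.0% in untrained mice. Its mH2A1 cover was 99.1 and 99.0% in trained mice, against 98.7 and 94.6% in untrained mice at that time. At 1 h both variants covered most of it in every library. The gene-free 348.2 kb domain on chr6:99873401-100221600 had 1 h mH2A2 cover of only 34.8, 29.1 and 39.6% in trained mice, against 45.3, 48.9 and 48.5% in untrained mice. Its mH2A1 cover was almost complete, with 99.8 and 99.7% in trained mice, against 99.7 and 98.2% in untrained mice at 1 h. Here the mH2A2 libraries of trained mice lay below those of untrained mice, and mH2A2 and mH2A1 were far apart.

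Some of the domains with the highest and the lowest mH2A2 cover hold a gene. The 58.4 kb domain of Ajap1, a gene for a junction-associated membrane protein, on chr4:153390801-153449200, had more mH2A2 than mH2A1 cover on average (93.6 against 78.0%). The highest mean mH2A2 cover, 96.5%, was in the 50.4 kb domain chr7:44183601-44234000, which holds Klk1 and 4 Klk1b genes, near-identical serine protease genes over which reads are hard to place. The domain of Zfp366 (54.0 kb, chr13:99213001-99267000) had 4.01% and that of Rsad2 (53.0 kb, chr12:26415401-26468400), an interferon-induced antiviral gene, 6.28% mean mH2A2 cover. In the Rsad2 domain 1 h mH2A2 cover was 15.1, 11.7 and 0% in trained mice, against 6.04, 2.64 and 7.92% in untrained mice. The Rsad2 domain also had the lowest mean mH2A1 cover of all, 59.9%, with 30 min values of 6.79 and 21.5% in trained mice, against 21.5, 28.3 and 27.2% in untrained mice. At 1 h its mH2A1 cover was 90.2 and 80.8% in trained mice, against 86.0 and 41.9% in untrained mice.

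Long domains held somewhat fewer starts of protein-coding genes per Mb than the genome. A gene was counted as inside when at least 50% of its span lay in a long domain. By this count 1105 of 21755 protein-coding genes were inside (5.08%), close to the 5.41% of the genome that the long domains take up, and 1042 of 9603 long non-coding RNA genes (10.9%). Starts of protein-coding genes numbered 7.05 per Mb in long domains, 8.49 in shorter domains and 8.50 over the genome. Of the 1574 long domains, 660 had a protein-coding gene inside, 914 had none, 687 overlapped none, and 157 lay wholly within 1 gene. Of the 567 protein-coding genes with a span of 0.3 Mb or more, 9 were inside.

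**Figure D3:**
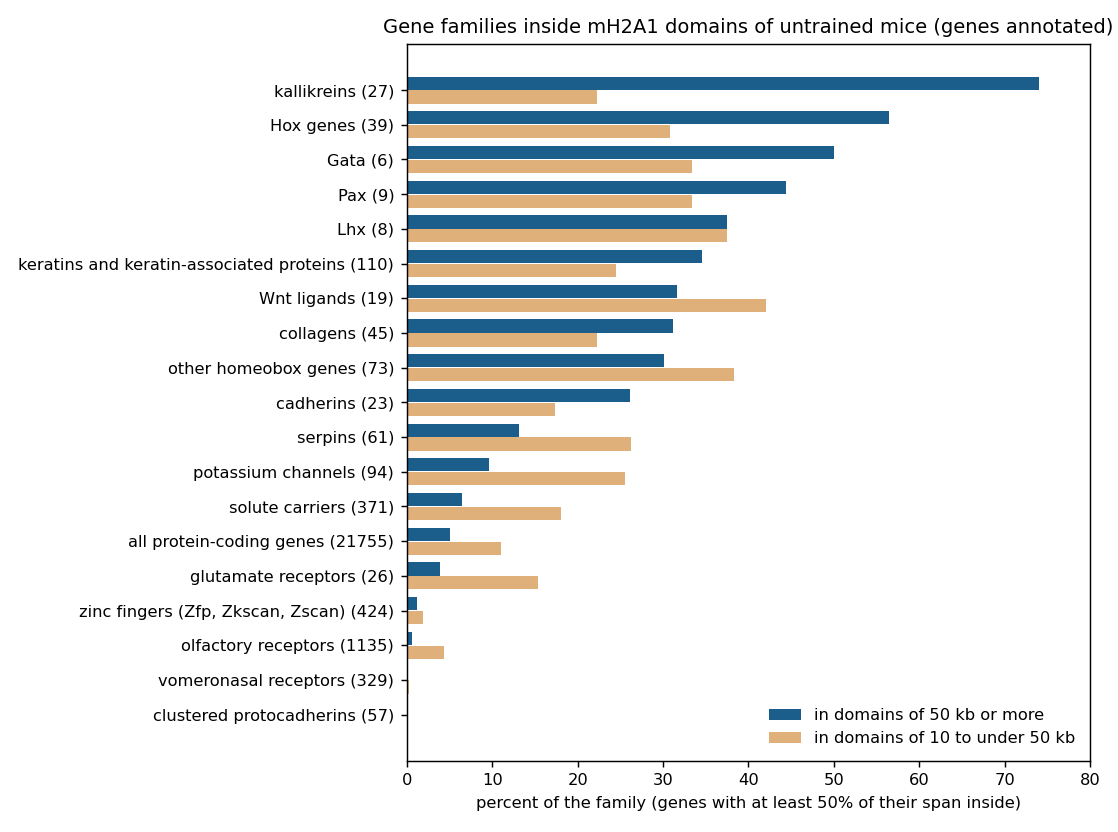
Percentage of the annotated genes of each family that lay inside long domains (upper bar of each pair) and inside shorter mH2A1 domains of 10 to under 50 kb (lower bar), with the number of annotated genes in parentheses and a row for all protein-coding genes. Kallikreins (74.1%) and Hox genes (56.4%) have the highest shares in long domains, and olfactory receptors (0.617%) and zinc finger genes (1.18%) are near 0.

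Gene families differed in the share of their genes that lay inside. They were counted whole, and most of the 1105 genes belong to none of them. Of developmental transcription factors, 22 of 39 Hox genes (56.4%), the factors that pattern the body axis, lay in 3 long domains, with 4 of 9 Pax genes, 3 of 8 Lhx genes and 22 of 73 other homeobox genes. Over the whole list of homeobox, Pax, Sox, Fox, Gata, Tbx, Lhx, Nkx and sine oculis-related genes, 68 of 231 (29.4%) lay in long domains, against 74 (32.0%) in shorter domains. One of the 2 long domains with the most protein-coding genes, 300.0 kb on chr11:96077401-96377400, held 12 protein-coding genes, among them Hoxb1 to Hoxb9 and Hoxb13. Its mH2A2 cover at 30 min was 49.3 and 39.9% in trained mice, against 54.9, 71.8 and 62.3% in untrained mice. Its mH2A1 cover at 30 min was 60.0 and 77.8% in trained mice, against 76.7, 81.1 and 85.1% in untrained mice.

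Clustered families of secreted and structural proteins lay on both sides of the 5.08% of all protein-coding genes. Of 27 kallikreins, a cluster of secreted serine proteases, 20 (74.1%) lay in 4 long domains, and 38 of 110 keratins and keratin-associated proteins (34.5%) in 10, with 11 keratin genes in 1 domain of 244.4 kb on chr15:101347601-101592000. Collagens, the fibrous proteins of the extracellular matrix, are not clustered, and 14 of 45 (31.1%) lay in 14 separate long domains, against 10 (22.2%) in shorter ones. Wnt ligands had 6 of 19 and cadherins 6 of 23 inside. Of other clustered families, 6 of 64 defensins (9.38%), 0 of 36 late cornified envelope and Sprr genes, 0 of 22 major urinary protein genes and 0 of 11 Skint genes were inside. Receptor and zinc finger families were nearly absent: 7 of 1135 olfactory receptors (0.617%), 0 of 329 vomeronasal receptors, 0 of 57 clustered protocadherins and 5 of 424 zinc finger genes (1.18%) were inside. Of the genes for synaptic receptors, 1 of 26 glutamate receptor genes (Grik3) and 0 of 19 GABA-A receptor subunit genes were inside.

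Most genes inside were little expressed in CA1. In shScr mice of the depletion experiment 33.9% ± 1.90 of protein-coding genes inside reached 1 CPM (a counts-per-million value), against 33.8% ± 2.28 in shorter domains and 61.6% ± 1.04 of all (SD, n = 3). In intact untrained mice the shares were 32.1% ± 0.189 inside, 32.9% ± 0.301 in shorter domains and 63.6% ± 0.143 of all, and in untrained shScr mice of the training experiment 38.0% ± 0.344, 36.5% ± 0.503 and 65.9% ± 0.116. The median level inside was 0.138 CPM in shScr mice, against 6.04 CPM for all protein-coding genes. Of the 1105 genes inside, 235 had no count in any shScr library of that experiment, 116 had a mean of 10 CPM or more and 12 of 100 CPM or more.

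Within families, none of the 22 Hox genes inside reached a mean of 1 CPM in shScr mice, and the highest had 0.248 CPM. Keratins reached it in 4 of 38 and kallikreins in 2 of 20, namely Klk8 and Klk6. Of the list of 68 developmental transcription factors 4 did so (Lhx6, Tbx3, Pax5 and Pax2), with Lhx6, a factor of inhibitory interneurons, the highest at 21.7 CPM. Collagens differed from these, with 12 of 14 at 1 CPM or more.

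The gene inside with the highest level per length was a myelin gene. Mobp, a myelin protein gene of oligodendrocytes, had 180, 96.8 and 178 CPM per kb of exon in the shScr libraries, the highest mean (152 ± 47.5, SD, n = 3). It was followed by Gpr37l1, an astrocyte receptor gene (84.3 ± 5.01), Fam107a (84.0 ± 12.3), Sparc, a matrix-associated protein gene (56.9 ± 15.3), Meg3, an imprinted long non-coding RNA (53.9 ± 16.7), and Mag, a myelin glycoprotein gene (52.6 ± 9.46). The spread of Fam163b (47.1 ± 35.5) was almost as large as its mean. The Mobp domain, 50.8 kb on chr9:120133201-120184000, had 30 min mH2A1 cover of 28.3 and 7.48% in trained mice, against 26.4, 48.8 and 25.6% in untrained mice. These were among the lowest of the named domains at that time. At 1 h its mH2A1 cover was 94.5 and 89.4% in trained mice, against 79.1 and 50.8% in untrained mice.

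The targeted genes were looked at before the knockdown comparisons. H2afy had 43.1, 45.0 and 39.2 CPM in shH2afy mice, against 60.8, 58.2 and 52.8 CPM in shScr mice of the depletion experiment, with no overlap (log2 fold change −0.37, SE 0.10, adjusted p = 0.031, edgeR quasi-likelihood test with Benjamini-Hochberg adjustment). H2afy2 had 13.2, 8.05 and 7.57 CPM in shH2afy2 mice, against 18.2, 18.7 and 19.0 CPM in shScr mice (−0.95, edgeR adjusted p = 0.0907). The gene of the other variant differed from shScr mice as well. H2afy2 had 16.1, 15.1 and 13.6 CPM in shH2afy mice, below every shScr library. H2afy had 65.0 to 72.0 CPM in shH2afy2 mice, above every shScr library. These differences are given without a test, so selective depletion is not shown by these libraries. In the training experiment, where counts cover introns as well, the gene of mH2A1 had 87.1, 88.8 and 87.9 CPM in the untrained libraries labelled shH2afy, against 82.2, 81.3 and 78.3 CPM in untrained shScr libraries (0.13, edgeR adjusted p = 0.0868). This goes against the label, so these are called the libraries labelled shH2afy, and the direction of every knockdown result of that experiment rests on the label.

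After shH2afy, genes inside long domains were called higher far more often than lower. In the depletion experiment 562 of 3032 genes of any kind inside had enough counts to be tested, and with a limit of adjusted p under 0.01 and a fold change over 2 (edgeR, Benjamini-Hochberg), 178 were higher (31.7%) and 10 lower (1.78%), where 10.5% of all 16179 tested genes were higher and 1.2% lower. A gene that passed the count filter only through the group in which it is high had to differ, so these shares describe the tested genes and not all genes inside. The median log2 fold change was 0.78 inside and 0.01 over all tested genes. Shorter mH2A1 domains had nearly the same shares, 31.7% higher and 1.67% lower of 1254 tested, and the difference between long and shorter domains was not tested.

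The share called higher was above that of all genes at each level of expression, taken as the mean over the shH2afy and shScr libraries. That mean contains the change itself, and a strongly raised gene falls in a higher class. These shares thus do not compare genes of equal level in shScr mice. Under a mean of 1 CPM it was 17.5% inside long domains (14 of 80), 8.33% in shorter domains and 7.72% of all tested genes of that level. For 1 to under 10 CPM it was 28.7% (90 of 314), 29.7 and 16.6%, and for 10 CPM or more 44.0% (74 of 168), 44.9 and 8.04%. Genes called lower numbered 1 of 80 under 1 CPM, where 0.102% of all were, 6 of 314 at 1 to under 10 CPM, where 0.759% of all were, and 3 of 168 at 10 CPM or more, where 1.49% of all were. The number called depended on single libraries: leaving out each of the 6 in turn gave 112 to 221 genes called in either direction, against 188 with all, with 112 without shH2afy replicate 1, 117 without shScr replicate 2 and 120 without shScr replicate 3.

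**Figure D4:**
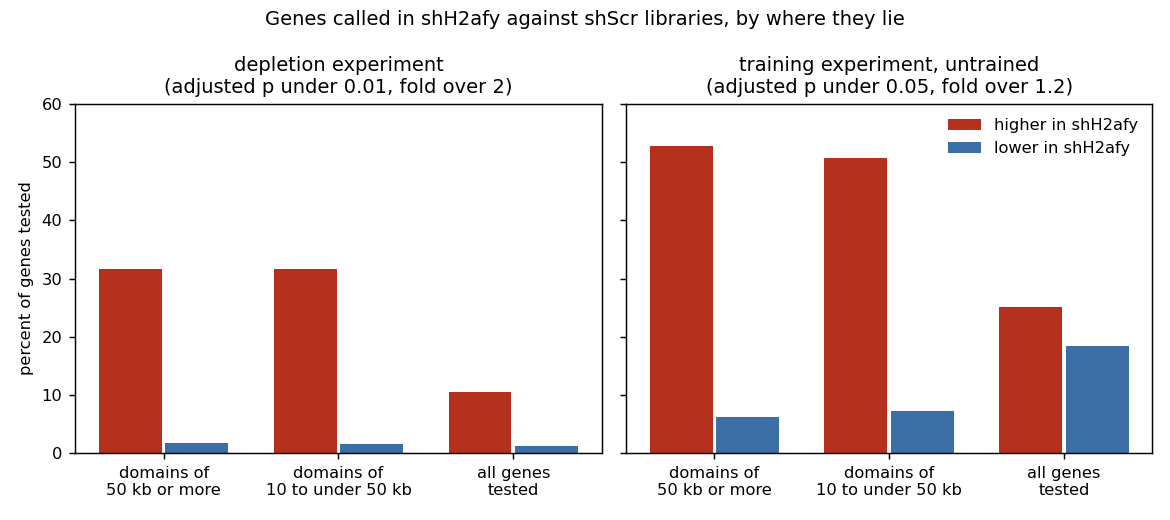
Percentage of tested genes called higher or lower in libraries labelled shH2afy than in shScr libraries, for genes inside long domains, genes inside shorter mH2A1 domains of 10 to under 50 kb and all tested genes, in the depletion experiment and in untrained mice of the training experiment (limits differ between the experiments). The share called higher is 31.7% inside long domains and 10.5% of all genes in the depletion experiment, and 52.7 and 25.2% in the training experiment.

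In the training experiment 660 of 1056 genes inside were tested, and with its limit of adjusted p under 0.05 and a fold change over 1.2 (edgeR), 348 were higher (52.7%) and 41 lower (6.21%) in untrained libraries labelled shH2afy, where 25.2% of all were higher and 18.5% lower (43.7% in either direction). Shorter mH2A1 domains again had nearly the same shares, 50.6% higher and 7.30% lower of 1494 tested, and 38.0, 55.7 and 60.8% higher at under 1, 1 to under 10 and 10 or more CPM. Levels were again means over the libraries of both groups. By level, 43.4% of 219 genes inside were higher under 1 CPM, where 35.3% of all were, 53.3% of 257 at 1 to under 10 CPM, where 35.4% of all were, and 63.0% of 184 at 10 CPM or more, where 19.2% of all were. Genes lower made up 3.20, 7.39 and 8.15% of those inside at the same levels, where 3.62, 9.51 and 24.9% of all were lower. The median log2 fold change was 0.70 inside and 0.00 over all tested genes. Of 492 genes inside tested in both experiments, 172 were higher in the depletion experiment and 276 in the training experiment, and 167 in both, which is 97.1% of those in the depletion experiment and 60.5% of those in the training experiment. None was called in opposite directions, and 2 were lower in both. The training experiment had the looser limits, and these shares were not worked out over all genes, so they are not particular to long domains.

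Markers of other cell types moved with these results. The summed level of 5 activated microglia and macrophage markers was 314 to 1106 CPM in shH2afy mice and 18.2 to 38.6 CPM in shScr mice of the depletion experiment (5 of 5 higher), that of 5 homeostatic microglia markers 842 to 1245 and 188 to 278 CPM (5 of 5 higher), and that of 4 reactive astrocyte markers 4586 to 5854 and 313 to 716 CPM (4 of 4 higher). Markers of CA1 pyramidal neurons summed to 387 to 544 CPM in shH2afy mice and 852 to 1882 CPM in shScr mice (2 of 6 lower), and those of inhibitory neurons to 493 to 610 and 988 to 1085 CPM (4 of 6 lower). Oligodendrocyte markers summed to 3921 to 5359 and 3959 to 6474 CPM (0 of 4 called) and endothelial markers to 89.3 to 110 and 75.9 to 111 CPM (0 of 3 called). B and plasma cell markers summed to 1.66 to 838 CPM in shH2afy mice and 0.436 to 1.70 CPM in shScr mice. The 3 neutrophil markers summed to 0.671 to 1.94 and 0.0691 to 0.213 CPM, too few counts for any to be tested, and of them Ly6g was at 0 in all. The sums differed in the training experiment too, where activated microglia markers summed to 242 to 546 CPM in libraries labelled shH2afy and 24.6 to 27.2 CPM in shScr. There the thalamus markers summed to 1039 to 1237 and 1111 to 1207 CPM, above the CA1 markers at 122 to 308 and 370 to 546 CPM. Counts of the training experiment include introns. In the depletion experiment the thalamus markers summed to 49.8 to 56.2 CPM in shH2afy mice and 45.5 to 69.4 CPM in shScr mice, below the CA1 markers. The cause of this difference between the experiments was not tested. The part of these cell types in the changes of genes inside long domains was not tested. Several markers lie inside long domains themselves, among them Tmem119, Serpina3n, Pvalb and Mag.

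Microglial and other immune genes led those called higher. Complement C1q, which tags synapses and debris for removal by microglia, has its 3 chains C1qa, C1qb and C1qc side by side in a 119.6 kb long domain on chr4:136836801-136956400, with Epha8. C1qa had 854, 1056 and 367 CPM in shH2afy mice, against 54.3, 29.9 and 39.9 CPM in shScr mice, C1qb 759, 864 and 385 against 51.3, 32.1 and 53.0 CPM, and C1qc 626, 721 and 298 against 45.4, 28.7 and 33.6 CPM. Groups did not overlap for any of the 3, and the log2 fold changes were 4.27, 3.95 and 4.00 (SE 0.44, 0.36 and 0.37, edgeR adjusted p = 0.000598, 0.000392 and 0.000396). Epha8, an ephrin receptor gene in the same domain, had 4.49, 3.16 and 0.968 CPM in shH2afy mice, against 1.73, 4.73 and 10.6 CPM in shScr mice (−0.89, edgeR adjusted p = 0.376). Of the whole domain, 1 h mH2A2 covered 97.8, 94.5 and 98.3% in trained mice, against 64.2, 100 and 99.2% in untrained mice. There 1 h mH2A1 covered 99.8 and 99.2% in trained mice, against 99.3 and 92.0% in untrained mice. At 30 min mH2A2 covered 72.7 and 21.1% of it in trained mice, against 64.4, 82.4 and 70.4% in untrained mice. The 30 min mH2A1 cover was 71.7 and 85.5% in trained mice, against 78.1, 89.0 and 89.3% in untrained mice.

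Irf8, whose product specifies microglia, had 115, 127 and 53.7 CPM in shH2afy mice, against 7.26, 4.92 and 7.13 CPM in shScr mice (log2 fold change 4.01, edgeR adjusted p = 0.000377). Laptm5, a lysosomal gene of blood cells and microglia in the 371.6 kb domain chr4:130850601-131222200, had 351, 343 and 179 CPM, against 44.0, 29.8 and 33.5 CPM in shScr mice (3.09, edgeR adjusted p = 0.00045). In both genes the third shH2afy library was the lowest of its group and still above every shScr library. The genes of the other longest domains varied: Ptpru had 29.3, 49.3 and 37.4 CPM in shH2afy mice, against 114, 53.2 and 70.2 CPM in shScr mice (−0.96, edgeR adjusted p = 0.0429, past neither limit), Prdm16 had a log2 fold change of 0.03, Gli2 0.42, Tfcp2l1 1.67 and Col13a1 2.75, the last pair called higher. These genes were chosen with their values known, for the length of their domains.

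**Figure D5:**
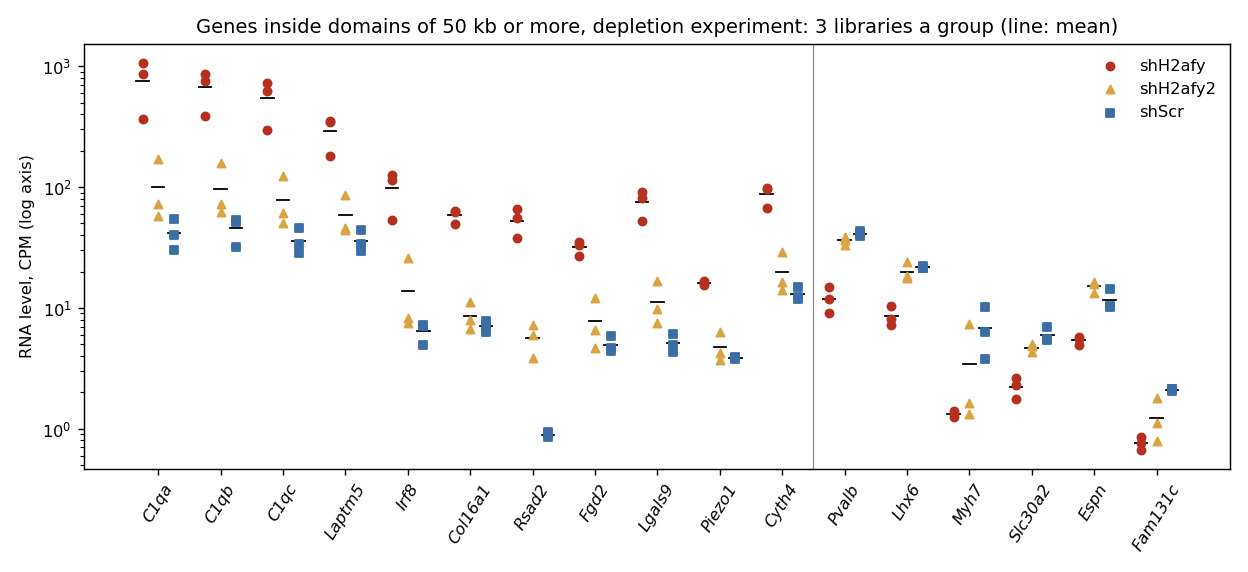
Level in CPM (log axis) of genes inside long domains in each library of the depletion experiment, with shH2afy, shH2afy2 and shScr libraries from left to right for each gene. The 3 shH2afy libraries lie above the 3 shScr libraries for C1qa, Irf8 and Laptm5 and below them for Pvalb and Lhx6.

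The genes called higher with the smallest adjusted p were Col16a1, Rsad2, Fgd2, Lgals9, Piezo1 and Cyth4. Col16a1, a collagen gene in a 58.4 kb domain, had 62.4, 63.8 and 49.2 CPM in shH2afy mice, against 7.81, 6.29 and 7.03 CPM in shScr mice (log2 fold change 3.12, SE 0.16, edgeR adjusted p = 5.88e-05). Rsad2 had 65.5, 55.2 and 37.7 CPM, against 0.899, 0.934 and 0.852 CPM in shScr mice (5.93, SE 0.28, edgeR adjusted p = 5.88e-05). The groups were far apart in both. The Rsad2 domain is among those with almost no mH2A2 cover. Lgals9, a galectin gene of immune cells, had 90.2, 81.7 and 52.1 CPM, against 4.91, 4.36 and 6.07 CPM in shScr mice (3.95), and Piezo1, a mechanically gated channel gene, 16.2, 15.4 and 16.7 CPM, against 3.80, 3.92 and 3.83 CPM (2.12).

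Among the few genes lower in shH2afy mice were genes of inhibitory interneurons. Pvalb, the calcium-binding protein parvalbumin of fast-spiking interneurons, had 9.05, 15.0 and 11.8 CPM in shH2afy mice, against 40.9, 43.3 and 39.1 CPM in shScr mice (log2 fold change −1.71, SE 0.18, edgeR adjusted p = 0.000708). Lhx6, which lies in one of the shortest long domains, on chr2:36052401-36102400, had 8.11, 7.17 and 10.4 CPM, against 21.4, 21.2 and 22.4 CPM in shScr mice (−1.28, SE 0.16, edgeR adjusted p = 0.00129). The groups did not overlap in either gene, and the summed inhibitory neuron markers given above, which include Pvalb, were lower as well. The other named genes of this direction were Myh7 (−2.27), Slc30a2 (−1.35), Espn (−1.05) and Fam131c (−1.38). In the training experiment lower genes with small adjusted p included Tbata (−2.43), Ajap1 (−0.96), Krt73 (−2.04), Klk10 (−2.61) and Pcare (−2.50), and Pvalb and Lhx6 were again lower (−1.06 and −0.78, edgeR adjusted p = 0.0107 and 0.00547).

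Among collagens inside, every call was in 1 direction. Of 13 tested collagen genes inside, 8 were called higher (Col16a1, Col5a3, Col2a1, Col27a1, Col18a1, Col15a1, Col6a3 and Col13a1) and 0 lower in the depletion experiment, with a median log2 fold change of 1.76. There 31.7% of all tested genes inside long domains and 10.5% of all tested genes were higher. In the training experiment 10 of 13 were higher (median 1.35), where 52.7% of those inside and 25.2% of all were. Col5a3, for example, had 24.9, 23.9 and 28.6 CPM in shH2afy mice, against 3.46, 1.56 and 2.45 CPM in shScr mice (3.44, edgeR adjusted p = 0.000245). Of 5 tested kallikreins Klk6 and Klk9 were higher. Klk6, a protease of oligodendrocytes, had 97.6, 166 and 70.7 CPM, against 1.80, 1.56 and 5.11 CPM in shScr mice (5.47, edgeR adjusted p = 0.000464), whereas its neighbour Klk8 had 16.0, 25.2 and 12.4 CPM, against 22.9, 7.34 and 10.2 CPM, and overlapped. Of 5 tested serpins 3 were higher, Serpina3n, a marker of reactive astrocytes, with 1408, 1317 and 853 CPM, against 77.4, 43.8 and 29.7 CPM in shScr mice (4.64, edgeR adjusted p = 0.000327).

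Few developmental transcription factors had enough counts to be tested. Of the 68 inside, 7 were tested in the depletion experiment, and Lhx6 alone was called. Prrx2 (log2 fold change 2.11, edgeR adjusted p = 0.0138) and Pax5 (2.00, edgeR adjusted p = 0.0466) did not reach the limit of 0.01. In the training experiment, with deeper libraries, 17 were tested, 6 higher and 1 lower, where 25.2% of all tested genes were higher and 18.5% lower. Hoxb3 had 0.695, 1.11 and 0.993 CPM in libraries labelled shH2afy, against 0.0723, 0.0629 and 0.0982 CPM in shScr (3.56, edgeR adjusted p = 0.00019), and Hoxb4 0.276, 0.544 and 0.668, against 0.0603, 0.0377 and 0.0982 CPM (2.90, edgeR adjusted p = 0.00245). Both stayed at or under about 1 CPM. Irx3, whose start lies at the edge of a 305.8 kb domain and whose body lies in an adjacent long domain, was also higher there.

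Few long domains could hold more than 1 called gene, since most of those with a tested gene had only 1. Of all tested genes in the depletion experiment, 10.5% were called higher and 1.2% lower. The counts below were not worked out for shorter domains. Of 458 long domains with a tested gene in that experiment, 84 had 2 or more tested genes. Of the 458, 164 held a gene called higher, 9 a gene called lower and 2 one of each. In 11 at least 2 genes were higher, and in 3 of these 3 genes: the C1q domain, a domain of 80.4 kb on chr15:100648601-100729000 with Galnt6, Bin2 and Cela1, and a domain of 62.4 kb on chr5:120763401-120825800 with Oas1c, Oas1b and Oas3, interferon-induced genes with close paralogs. Bin2, a gene of microglia and other leukocytes, had 65.1, 69.4 and 54.1 CPM in shH2afy mice, against 8.23, 4.48 and 6.18 CPM in shScr mice (3.39, edgeR adjusted p = 0.000161).

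Depletion of mH2A2 gave no call inside long domains, and none among all 15609 tested genes, so the absence is not particular to the domains. The paper, with DESeq2 at the same limits, lists Rsad2 and C1qc among the genes higher after both knockdowns. Of 469 tested genes, 0 passed the limit in shH2afy2 against shScr mice (edgeR; 0.0% of all tested genes), 67 were at an unadjusted p under 0.05 (14.3%, where 20.7% of all were), and 4 were called by DESeq2. The shH2afy and shH2afy2 comparisons share the shScr libraries. C1qa had 72.0, 171 and 57.5 CPM in shH2afy2 mice, against the shScr values above (1.28, edgeR adjusted p = 0.157), and Rsad2 7.21, 6.00 and 3.84 CPM (2.65, edgeR adjusted p = 0.0714). For both genes all shH2afy2 libraries lay above all shScr libraries without passing the test.

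Training gave no call inside long domains at 1 h either. Among all tested genes edgeR called 0 of 15424 in shScr mice and 0 of 15866 in libraries labelled shH2afy. In intact mice it called 15 of 15638. The absence is thus not particular to the domains. The paper, with DESeq2 at the same limits, reports genes changed by training in each of these comparisons, most of them higher. Among shScr mice 0 of 591 tested genes inside differed between trained and untrained mice (edgeR; 0.0% of all), with 63 at an unadjusted p under 0.05 (10.7%, where 8.96% of all were) and 14 called by DESeq2. Among libraries labelled shH2afy 0 of 661 did (0.0% of all), with 38 at an unadjusted p under 0.05 (5.75%, where 3.86% of all were) and 4 called by DESeq2. In intact mice 0 of 563 did (0.0959% of all), with 90 at an unadjusted p under 0.05 (16.0%, where 20.0% of all were), 3 called by DESeq2, and 10 by edgeR when untrained replicate 2 was left out.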

How the data were processed

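ChIP-seq and RNA-seq of mouse hippocampal area CA1 were used, 30 domain lists and 26 RNA libraries of 81 samples, with 25 inputs entering only through the lists. The authors aligned ChIP reads to mm10 with Bowtie2 and called broad domains per library against its input (epic2 by the paper's methods, SICER by the submitters' processing notes). The deposited lists hold reads as counts, a p-value with its FDR (highest 0.05), a log2 of ChIP over input and a score of 100 times that log2. RNA reads were aligned with STAR and the authors deposited raw counts per gene from featureCounts, over whole transcripts with introns in the training experiment.

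Here lists were laid on 200 bp bins. The long domains, the gene families and the marker lists were chosen with earlier results of these data known. Genes of GENCODE M21 were inside with at least 50% of their span, and 99.8, 98.3 and 98.1% of rows of the depletion, intact and training tables matched. Counts were tested with edgeR 4.0.16 (quasi-likelihood, TMM, filterByExpr with at least 10 counts) in R 4.3.3, each comparison on its own libraries, with Benjamini-Hochberg adjustment over all tested genes, at adjusted p under 0.01 and a fold over 2 (depletion), adjusted p under 0.05 and a fold over 1.2 (training experiment) and adjusted p under 0.01 (intact mice). Cover was compared by exact permutation over libraries in Python 3.11.15, adjusted over 6 comparisons. The scripts were tested on simulated data. Alternatives were DESeq2 1.42.0, no count filter, a replicate block, each library left out, and other limits for domains. Named genes were up to 6 higher and 6 lower of smallest adjusted p in a comparison, the 10 of highest level and up to 4 a family, and named domains the 10 longest, the 3 with the most protein-coding genes and those of named genes. Genes outside this rule (C1qa, Epha8, Hoxb3, Hoxb4, those named for the longest domains, such as Laptm5 and Irf8, and other members of counted families or domains) were chosen after their values were seen. Same-numbered shScr trained and untrained libraries of the training experiment deviated together (correlations 0.169, 0.169 and 0.229), and a block on the number gave 0 calls there. A result for 1 gene that this rule names is not reported here.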

Additional observations from a re-analysis of the deposited data

Results flagged for a closer look

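In 12 sets of values 1 library stood far from the others of its group: the length-weighted log2 of ChIP over input of mH2A1 in long domains of untrained 6 h mice was 0.98 in replicate 4 and 1.02, 1.02, 1.03 and 1.03 in the other 4. Chance marks about 1 in 20 groups in this way. This library is one of the 5 that chose the long domains, and with any 1 of the 5 left out the rule gave 1112 to 1202 long domains.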

How the results depend on the processing

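Over the alternatives run, 112 values counted as the same, 22 moved and 3 turned round. For cover comparisons the same meant an unchanged direction and side of the test limit, which most of them could not pass. For gene counts it meant a number within a set fold of the main one. For shares of genes that reached a level it meant a value within the SD of the libraries. The number of long domains was 992 with 4 of 5 libraries, 360 with all 5, 372 at 100 kb or more, and 1112 to 1202 with 1 library left out, and 624 protein-coding genes lay inside with bins in 4 of 5. As a log2 ratio to cover of the genome, trained minus untrained cover was 0.046 for mH2A1 at 30 min and 0.10 for mH2A2 at 1 h, against negative differences in points. With 1 library left out it was −15.4 to −5.44 points for mH2A1 and −32.1 to −8.78 for mH2A2 at 30 min, −1.17 to 8.52 for mH2A1 and −7.94 to −0.18 for mH2A2 at 1 h, and mH2A2 minus mH2A1 cover in untrained mice was −21.9 to −14.1 at 30 min and −34.1 to −24.4 at 1 h. Long minus shorter mH2A1 cover was 23.4 points in the 30 min libraries by themselves. Genes inside called after shH2afy in the depletion experiment (188) numbered 294 without a count filter, 125 with a replicate block, although the numbers there do not pair the samples (correlations −0.128, −0.29 and −0.139), and 112 to 221 with 1 library left out, and 349 to 394 in the training experiment. For shH2afy2 DESeq2 called 4 and edgeR without a filter 28. For training DESeq2 called 14 genes in shScr libraries, 4 in libraries labelled shH2afy and 3 in intact mice, where leaving out 1 library gave 0 to 10. The share of genes inside that reached 1 CPM became 49.6, 58.8 and 67.3% in the depletion, intact and training tables for a limit of 10 counts and 30.4, 28.9 and 33.6% for genes with their start inside. The replicate block changed no other call. The cause of these changes was not tested. With 2 or 3 libraries a group the smallest p of most cover tests was 0.1, so their thresholds could not be passed.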
